A study of Mus musculus with 6 samples.

Results

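The proteasome genes of mouse whole blood were compared between food restriction (FR) and a normal diet. The members are the genes whose symbol is Psma, Psmb, Psmc, Psmd or Psme followed by a number. Of 43 such genes in the RefSeq table, 42 had probes on the array (57 probes), among 16535 named genes in all. Psma8 had none, and Psmb2, Psmb11, Psmd1 and Psmd13 were too dim, meaning that neither diet was well above background on all 4 arrays used for testing. The remaining 38 were tested: 13 genes of the constitutive core, the 5 immunoproteasome genes (Psmb8, Psmb9, Psmb10, Psme1 and Psme2), 18 genes of the regulatory particle and the activators Psme3 and Psme4. Of these, 12 were above background on all 4 arrays in the control channel alone and 26 in FR too.

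All animals were male C57BL/6J mice, 9 weeks old, and no genetic change or further agent separates the diets. FR mice received 50% food restriction of a standard chow for 2 weeks, and controls ate the normal diet, with 8 animals per diet. Blood came from the heart under anaesthesia. It was pooled before hybridization, so no value belongs to 1 mouse: pool 1 held all 8 animals of a diet, pool 2 animals 1 to 4 and pool 3 animals 5 to 8. Each of the 6 two-colour arrays carried FR and control RNA of 1 pool number, and each pool was run a second time with the dyes exchanged. A log2 ratio is FR over control. Each pool's value is the mean of its 2 arrays. Errors are the SD over pools 2 and 3 (n = 2). The p-values come from a spread shared by genes of like signal, not from a gene's own pools, so a gene whose pools differ widely can still pass. Pool 1 contains the same animals, so its values are given beside them as a description. Where a call is given without pool 2, the fit used pools 1 and 3, which share animals and are not independent.

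The proteasome is the main protease for proteins tagged with ubiquitin. Its barrel-shaped core has outer rings of alpha subunits and inner rings of beta subunits, of which PSMB5, PSMB6 and PSMB7 cut the protein chain. The regulatory particle caps the barrel, with ATPases (PSMC) that unfold substrates and non-ATPase subunits (PSMD) that bind ubiquitin and remove it. In blood leukocytes and after interferon, PSMB8, PSMB9 and PSMB10 replace PSMB5, PSMB6 and PSMB7 in newly made cores to form the immunoproteasome, and the PSME1 and PSME2 cap (PA28) joins it. This form is known for making peptides that are presented on MHC class I.

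The upstream bases of the 4 members with the lowest log2 ratios in the immunoproteasome, and of the constitutive partners Psmb5 and Psmb6, are shown because inducible and constitutive catalytic subunits are classically set apart by their promoters. They come from RefSeq on GRCm38.p6 and hold the 250 bases before the start of each gene, 5′ to 3′ on the gene's strand. Psmb8 lies at chr17:34197945-34198194 (plus strand), Psmb9 at chr17:34187331-34187580 (minus strand), Psmb10 at chr8:105938393-105938642 (minus strand), Psme2 at chr14:55591102-55591351 (minus strand), Psmb5 at chr14:54617996-54618245 (minus strand) and Psmb6 at chr11:70525107-70525356 (plus strand). Psme2 has 2 starts in the table and the first listed is shown. Capitals mark TTCNNNGAA (gamma-interferon activated site) in Psmb8, CCAAT on the opposite strand in Psmb9, and TGACNNNGC (antioxidant response element, bound by NFE2L1 and NFE2L2) in Psmb5 and Psmb6. Psmb10 and Psme2 hold none of the motifs searched in these bases.
Psmb8: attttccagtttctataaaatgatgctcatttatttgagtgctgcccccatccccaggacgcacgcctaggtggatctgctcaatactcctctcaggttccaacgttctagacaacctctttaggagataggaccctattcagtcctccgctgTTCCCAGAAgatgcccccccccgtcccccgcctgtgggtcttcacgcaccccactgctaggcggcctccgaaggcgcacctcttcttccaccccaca
Psmb9: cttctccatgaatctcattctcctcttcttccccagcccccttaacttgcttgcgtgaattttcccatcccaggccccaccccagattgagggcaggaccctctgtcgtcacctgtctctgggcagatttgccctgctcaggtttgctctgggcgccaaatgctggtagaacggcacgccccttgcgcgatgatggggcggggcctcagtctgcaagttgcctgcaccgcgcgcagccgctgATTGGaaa
Psmb10: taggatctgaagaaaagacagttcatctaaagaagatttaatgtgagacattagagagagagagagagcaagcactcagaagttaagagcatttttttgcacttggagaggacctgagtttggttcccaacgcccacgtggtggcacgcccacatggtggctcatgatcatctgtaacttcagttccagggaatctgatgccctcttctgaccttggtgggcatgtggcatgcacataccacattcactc
Psme2: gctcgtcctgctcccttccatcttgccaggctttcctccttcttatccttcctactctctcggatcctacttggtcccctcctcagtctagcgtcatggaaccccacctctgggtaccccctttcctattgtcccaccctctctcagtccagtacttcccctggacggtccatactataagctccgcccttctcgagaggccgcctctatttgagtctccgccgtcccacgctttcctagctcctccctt
Psmb5: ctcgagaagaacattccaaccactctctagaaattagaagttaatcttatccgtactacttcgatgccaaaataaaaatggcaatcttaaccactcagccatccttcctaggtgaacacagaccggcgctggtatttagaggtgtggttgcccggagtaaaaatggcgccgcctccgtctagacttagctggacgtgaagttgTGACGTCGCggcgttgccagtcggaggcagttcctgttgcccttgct
Psmb6: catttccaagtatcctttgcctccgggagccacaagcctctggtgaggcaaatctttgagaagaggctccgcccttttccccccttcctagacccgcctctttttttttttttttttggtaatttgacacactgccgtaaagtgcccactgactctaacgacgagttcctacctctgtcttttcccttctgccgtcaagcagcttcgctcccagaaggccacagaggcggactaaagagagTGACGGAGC
The interferon-stimulated response element (a pair of GAAA runs spaced by any 2 bases) matched near the start of Psme1, on the opposite strand, within chr14:55578493-55578522, and capitals mark it.
Psme1: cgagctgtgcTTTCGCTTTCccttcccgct

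Motifs were searched on both strands over 300 bases, from 250 before to 50 after each start, in 32851 promoters of the table, 39 of them from 36 members. TGACNNNGC was in 12.4% of all promoters and in 6 of the 36 genes (Psmb5, Psmb6, Psmc6, Psmd9, Psmd12 and Psme4). The interferon-stimulated response element was in 3.44% of all and in 4 genes (Psmb3, Psmd4, Psmd9 and Psme1). TTCNNNGAA, which can overlap that element at a shared GAA, was in 8.3% of all and in 2 genes (Psmb8 and Psmd2). CCAAT was in 37.4% of all and in 14 genes. Among the 5 immunoproteasome genes, TGACNNNGC was found in 0, and each of the other 3 motifs in 1. A match describes letters in this window and is no evidence of binding.

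In FR blood, transcripts of the proteasome core and immunoproteasome were lower. Most of the regulatory particle did not pass the test with the loess scaling and pools used here. Of the 38 members, 22 fell and 1 (Psme4) rose, by limma with Benjamini-Hochberg adjustment over 11498 features at 0.05. Over all those features, 24.5% were called lower and 3.74% higher, against 57.9% and 2.63% of the members. The features include unnamed probes. Among the 7905 named genes tested, 28.2% were lower and 3.25% higher, with a median log2 ratio of -0.04. All 5 immunoproteasome genes fell, with a median log2 ratio of -1.54. In the constitutive core 11 of 13 fell, with a median of -0.44. In the regulatory particle 6 of 18 fell, with a median of -0.18, and the median of all features was 0.01. Keeping a member through the control channel alone favours a brighter control. Of the 12 members kept in this way, all but Psmd10 (0.12) had a log2 ratio below 0. With both diets required above background, 13 of 26 members were lower, against 18.6% of features. With Agilent's processed signals in place of the background correction and loess used here, the medians were -2.09 for the immunoproteasome, -1.33 for the core and -0.31 for the regulatory particle, with 5, 10 and 7 genes lower. With no background subtraction alone they were -1.35, -0.42 and -0.17. The count in the regulatory particle depended on the setting. With median centring in place of loess, 12 of its 18 genes were lower (35.6% of features). With FR pools set against control pools unpaired, 1 of 18 was (8.56% of features). In bulk blood, fewer cells of a type and less RNA per cell cannot be told apart.

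Markers of white blood cells moved with these genes. Over all features, 24.5% were called lower and 3.74% higher. All 9 pan-leukocyte markers tested fell, with a median log2 ratio of -1.68, and their summed signal was 12311 to 19521 in the control pools and 3208 to 4513 in FR. B cell markers fell in 7 of 8 (median -2.40, summed signal 7929 to 15039 against 1089 to 1892), monocyte markers in 6 of 7 (-1.45, 31211 to 46736 against 4444 to 5346) and T cell markers in 4 of 8 (-0.47, 4168 to 4403 against 2907 to 3330). Neutrophil markers fell in 3 of 6 (-0.32, 10984 to 21755 against 8587 to 10189), and platelet markers in 6 of 8 (-1.03, 88210 to 90000 against 36302 to 37907). Of 8 erythroid markers 1 fell and 2 rose (0.05, 428857 to 507066 against 495849 to 580124). Of 7 cardiac muscle genes, Myh6, Tnnt2, Myl2 and Nppa were too dim and 0 of the other 3 were called (median 0.10, 1823 to 2261 against 1931 to 2281). The monocyte marker Cx3cr1 and the neutrophil markers Ngp and Camp were also too dim. Summed signals cover every listed gene with a probe, the too-dim ones included, while counts and medians leave those out. The brightest genes weigh most in a sum. Among monocyte markers this is Lyz2, with log2 signals of 14.96, 15.25 and 14.71 in control pools 1, 2 and 3. Several markers that fell were kept through the control channel alone. Among them were Ptprc, Ms4a1, Blnk, Lck and Ccr2, with FR above background on 3, 2, 2, 2 and 0 of 4 arrays. The part of blood cell composition in the proteasome values was not tested.

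**Figure D1:**
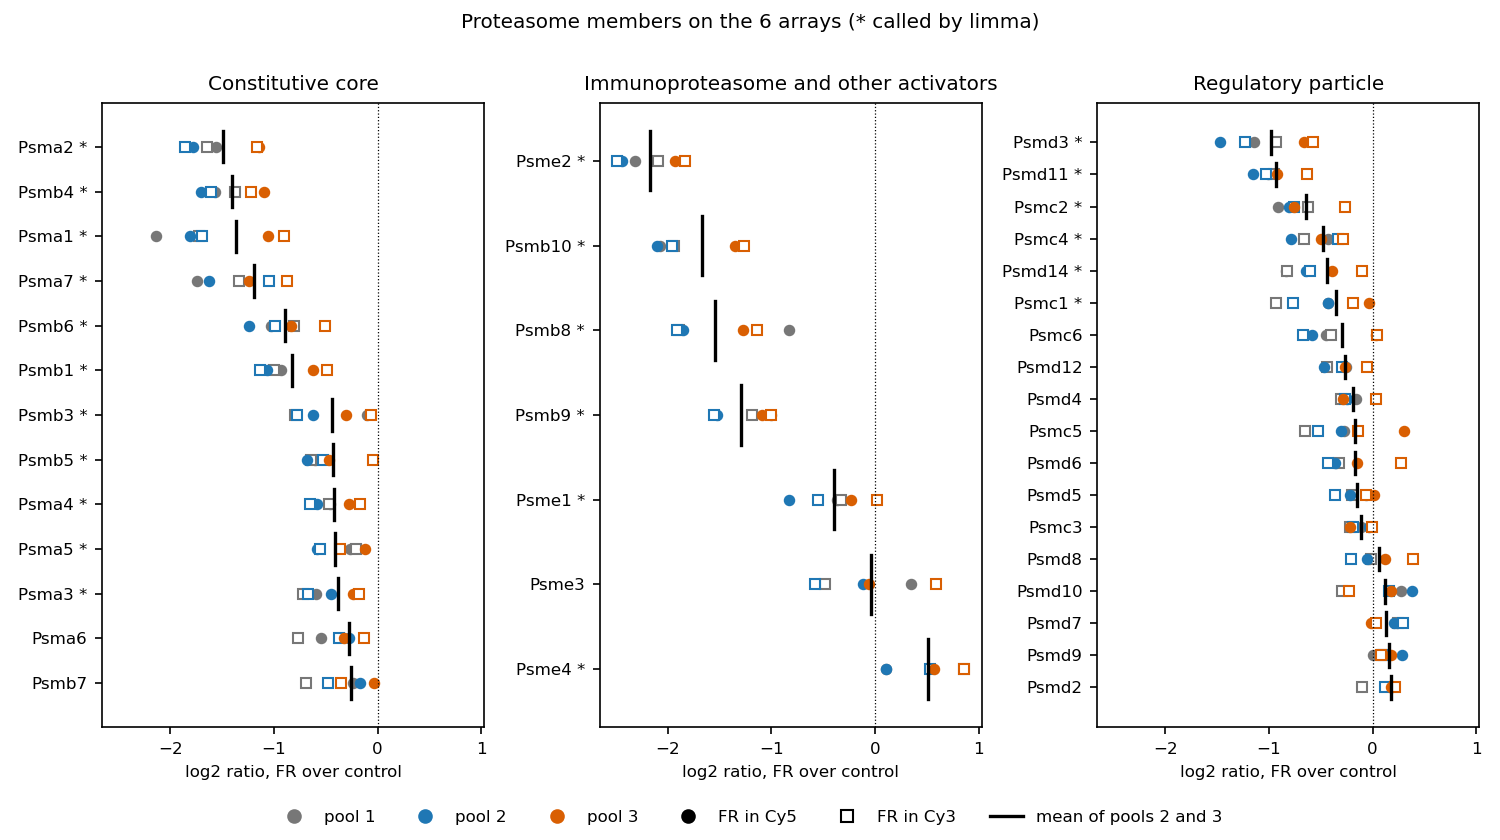
Log2 ratio of FR over control for the 38 tested members, 1 row per gene, with each of the 6 arrays as a point (colour for the pool, filled circle for FR in Cy5, open square for FR in Cy3) and a black line at the mean of pools 2 and 3. The 4 lowest immunoproteasome genes lie below 0 on every array, Psme4 lies above 0 on every array, and the lower rows of the regulatory particle panel straddle 0.

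The 3 inducible catalytic subunits were all lower, against 24.5% of all features. Psmb8 (LMP7, the chymotrypsin-like replacement for PSMB5) had log2 signals of 8.62, 9.30 and 8.87 in control pools 1, 2 and 3, and of 7.26, 7.42 and 7.67 in the FR pools. The diets did not overlap, and all FR pools were below all control pools. Its log2 ratio was -1.54 ± 0.48 (SD, n = 2), which is 2.91-fold lower (adjusted p = 7.7e-22), and pool 1 gave -1.36. The pool 1 arrays differed from each other, at -0.83 with FR in Cy5 and -1.90 with FR in Cy3. A second Psmb8 probe gave -1.91.

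Psmb9 (LMP2, which replaces PSMB6) had log2 signals of 8.25, 8.86 and 8.14 in control and 7.15, 7.31 and 7.08 in FR. Its log2 ratio was -1.30 ± 0.35 (SD, n = 2; 2.46-fold lower, adjusted p = 6.52e-15). Psmb10 (MECL-1, which replaces PSMB7) had log2 signals of 8.40, 9.01 and 8.42 in control and 6.39, 6.98 and 7.11 in FR. Its log2 ratio was -1.67 ± 0.51 (SD, n = 2; 3.18-fold lower, adjusted p = 2.97e-24). Neither gene overlapped between diets. FR was above background on 3 of 4 arrays for Psmb9 and on 2 of 4 for Psmb10, and with Agilent's processed signals their log2 ratios were -2.09 and -2.76.

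The constitutive catalytic subunits were lower by less. Psmb6 had log2 signals of 7.72, 8.31 and 7.85 in control and 6.80, 7.20 and 7.17 in FR, which do not overlap, and its log2 ratio was -0.89 ± 0.31 (SD, n = 2; 1.86-fold lower, adjusted p = 1.6e-07). Psmb5 had log2 signals of 7.78, 8.30 and 7.96 in control and 7.15, 7.69 and 7.71 in FR, where the lowest control pool was just above the highest FR pool. Its log2 ratio was -0.43 ± 0.25 (SD, n = 2; adjusted p = 0.025), a call lost without pool 2 and with the processed signals. Psmb7 had log2 signals of 8.97, 8.71 and 8.65 in control and 8.50, 8.39 and 8.46 in FR. The diets did not overlap, but its log2 ratio of -0.26 ± 0.09 (SD, n = 2; adjusted p = 0.231) did not pass.

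Set as pairs, each inducible subunit had the lower log2 ratio. The difference was -1.11 ± 0.23 (SD, n = 2) between Psmb8 and Psmb5, and it was below 0 on 6 of 6 arrays. It was -1.41 ± 0.42 between Psmb10 and Psmb7, below 0 on 6 of 6 arrays, and pool 1 gave -1.55. Between Psmb9 and Psmb6 it was smaller, -0.41 ± 0.04, and below 0 on 5 of 6 arrays. The exception was the pool 1 array with FR in Cy5, at 0.02. With the processed signals the differences were -1.49 for Psmb8, -2.38 for Psmb10 and -0.75 for Psmb9. Psmb9 and Psmb10 were kept through the control channel alone, so only the pair of Psmb8 and Psmb5 remained with both diets above background. No test of these differences was made, since a permutation of signs over 2 pools cannot reach 0.05.

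**Figure D2:**
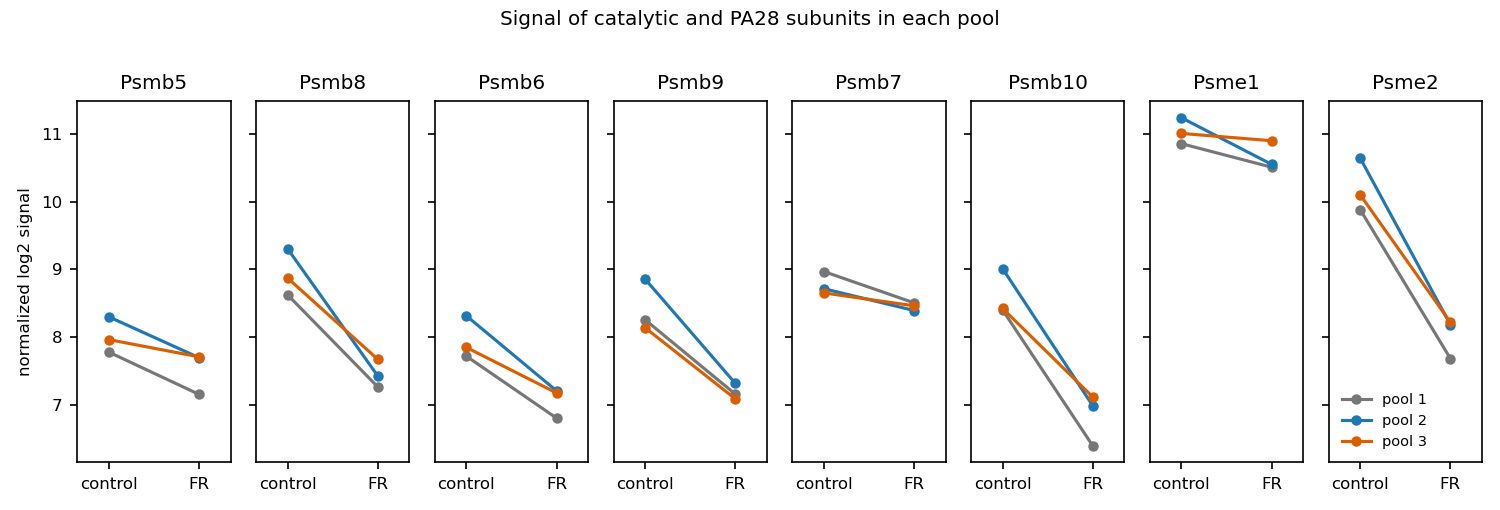
Normalized log2 signal (vertical axis) of the catalytic subunits and of both PA28 subunits in control and FR, with 1 line per pool joining the diets. Lines fall steeply for Psmb8, Psmb10 and Psme2 in all pools and by less for Psmb7 and Psme1, where the Psme1 line of pool 2 is the steepest (-0.69), and height should be compared within a gene, since each gene has its own probe.

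The partners of the PA28 cap parted. Psme2 (PA28 beta) had the lowest log2 ratio of all members. Its log2 signal was 9.88, 10.65 and 10.10 in the control pools and 7.68, 8.18 and 8.22 in the FR pools, so the diets were far apart. The log2 ratio was -2.17 ± 0.41 (SD, n = 2), which is 4.52-fold lower (adjusted p = 1.43e-46), and its second probe gave -1.64. Psme1 (PA28 alpha) had log2 signals of 10.86, 11.24 and 11.01 in control and 10.51, 10.55 and 10.90 in FR, where the diets overlap. Its log2 ratio of -0.40 ± 0.41 (SD, n = 2; adjusted p = 0.0246) passed the threshold, with -0.35, -0.69 and -0.11 in pools 1, 2 and 3, and without pool 2 the call was lost. The difference between Psme2 and Psme1, chosen after the values were seen, was -1.85, -1.77 and -1.78 in pools 1, 2 and 3. It varied little between pools, while either gene alone varied more. Psme1 and Psme2 lie on chromosome 14 with only Emc9 between them among coding genes.

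The other activators did not follow. Psme4 codes for PA200, a single-chain cap that acts without ATP. Its log2 signals were 8.31, 9.23 and 8.74 in control and 8.79, 9.55 and 9.45 in FR, overlapping between diets, but every pool was higher in FR. The log2 ratio was 0.51 ± 0.28 (SD, n = 2; 1.43-fold higher, adjusted p = 0.00247), above 0 on all 6 arrays, and a second probe gave 0.45. With median centring in place of loess it was 0.30 and not called (adjusted p = 0.284), and over all alternatives the adjusted p ran from 8.3e-06 to 0.284. Psme3, the nuclear activator PA28 gamma, was not called at -0.04 ± 0.43 (SD, n = 2). Its pools gave -0.07, -0.35 and 0.26.

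**Figure D3:**
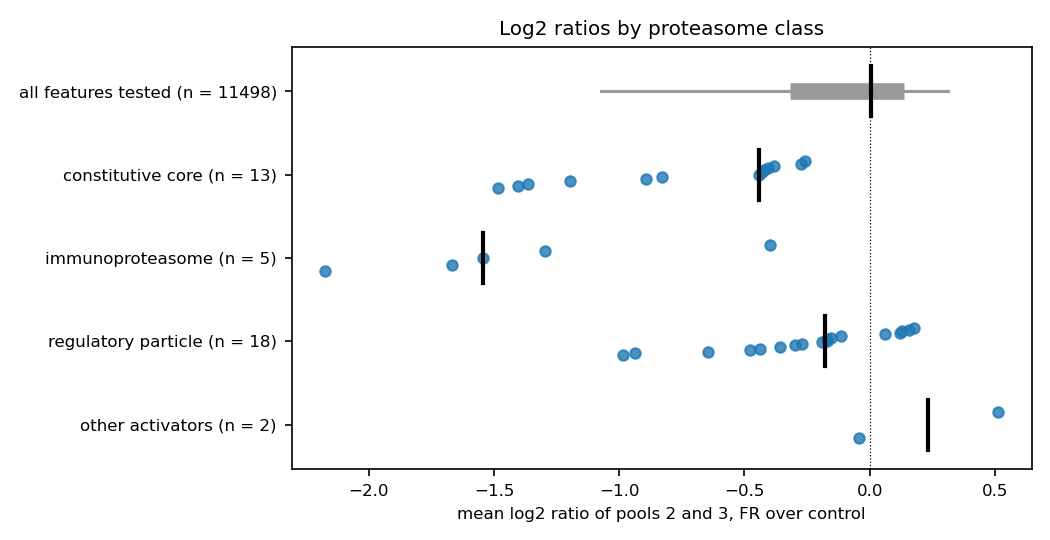
Mean log2 ratio of pools 2 and 3 for each member by class (points) with the class median (black line), and for all 11498 features the median, the middle 50% (thick bar) and the range from the 5th to the 95th percentile (thin line). The immunoproteasome median of -1.54 lies below the 5th percentile of all features (-1.07), and the regulatory particle median of -0.18 lies inside the middle 50% (-0.32 to 0.14).

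The alpha ring, which forms the gate of the barrel, fell in 6 of 7 genes, against 24.5% of all features. Psma2 had log2 ratios of -1.60, -1.82 and -1.16 in pools 1, 2 and 3, a mean of -1.49 ± 0.47 (SD, n = 2; 2.80-fold lower, adjusted p = 6.64e-21). Psma1 had -1.93, -1.75 and -0.98, with a mean of -1.36 ± 0.55. Psma7 had -1.54, -1.34 and -1.06, with a mean of -1.20 ± 0.20. These 3 had the lowest log2 ratios of the ring. Psma4 (-0.42 ± 0.28), Psma5 (-0.41 ± 0.23) and Psma3 (-0.38 ± 0.25) fell by less, and Psma6 (-0.28 ± 0.07, adjusted p = 0.119) was not called. All 7 were below 0 on all 6 arrays. The calls of Psma3, Psma4 and Psma5 were lost without pool 2. FR was above background on 1 of 4 arrays for Psma4 and on 2 for Psma1, Psma3 and Psma6. These 4 genes were thus kept through the control channel alone. With the processed signals they had log2 ratios of -1.75, -2.53, -1.50 and -0.97.

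The 3 tested non-catalytic beta subunits, which complete the inner rings, all fell, against 24.5% of all features. Psmb4 had log2 ratios of -1.47, -1.65 and -1.16 in pools 1, 2 and 3 (mean -1.40 ± 0.35, SD, n = 2; 2.65-fold lower, adjusted p = 7.82e-19). Psmb1 had a mean of -0.83 ± 0.39 (adjusted p = 1.47e-06), and Psmb3 of -0.44 ± 0.36 (adjusted p = 0.0108), a call lost without pool 2. A second Psmb3 probe gave -1.01. Core subunits occur in equal numbers in an assembled barrel. The log2 ratios of the 13 core genes ran from -1.49 to -0.26. With the processed signals they ran from -2.53 (Psma1) to -0.38 (Psmb7), so the spread depends on the processing as well as on the probe.

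The ATPases of the base, PSMC1 to PSMC6, form the ring that unfolds substrates. In this ring 3 of 6 genes fell, against 24.5% of all features: Psmc2 with log2 ratios of -0.77, -0.78 and -0.51 in pools 1, 2 and 3 (mean -0.65 ± 0.19, SD, n = 2), Psmc4 with a mean of -0.48 ± 0.12, and Psmc1 with -0.36 ± 0.35. Psmc6 (-0.30 ± 0.47), Psmc5 (-0.17 ± 0.35) and Psmc3 (-0.11) were not called, with adjusted p from 0.167 to 0.621. FR was above background on 1 of 4 arrays for Psmc1, 2 for Psmc2 and 3 for Psmc4, and with the processed signals they had log2 ratios of -1.75, -1.52 and -0.96. All 3 were thus kept through the control channel alone. With both diets above background, 2 of 12 genes of the regulatory particle, Psmd3 and Psmd11, were lower. That share is no higher than the 18.6% of all features under the same filter. The call of Psmc1 was lost without pool 2.

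Among the 12 tested genes with a Psmd symbol, 3 fell (25%), a share near the 24.5% of all features. These 12 hold non-ATPase subunits and also assembly chaperones such as Psmd9 and Psmd10. Psmd3, a scaffold of the lid, had log2 ratios of -1.03, -1.35 and -0.62 in pools 1, 2 and 3 (mean -0.98 ± 0.52, SD, n = 2; 1.98-fold lower, adjusted p = 6.28e-09). Psmd11, another lid scaffold, had -0.98, -1.10 and -0.78 (mean -0.94 ± 0.22, adjusted p = 1.76e-08). Psmd14, the enzyme that cuts ubiquitin chains from substrates, had a mean of -0.44 ± 0.27 (adjusted p = 0.00702), a call lost without pool 2. The other 9 were not called. Psmd2, coding for a large scaffold of the base, had 0.18 ± 0.03. The assembly chaperone gene Psmd9 had 0.16 ± 0.04, and the lid subunit gene Psmd7 had 0.13 ± 0.17. The remaining 6 were Psmd10 (0.12), a further chaperone gene, Psmd8 (0.06), Psmd5 (-0.16), Psmd6 (-0.17), the ubiquitin receptor gene Psmd4 (-0.19) and Psmd12 (-0.27). With median centring, Psmd2, Psmd7, Psmd8, Psmd9 and Psmd10 all lay below 0. Probes of Psmd12 (-0.27 and 0.23) and of Psmd7 (0.13 and -0.44) had opposite signs. With the processed signals Psmd14 had -1.31 and Psmd5 -1.14, and FR was above background on 2 and 1 of 4 arrays for them.

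Pools moved together in rank but not in size. In 28 of 38 members the log2 ratio was below 0 in all 3 pools, and in 4 it was above 0 in all 3. Pool 2 was lower than pool 3 in 35 of 38. The medians of pools 1, 2 and 3 were -0.51, -0.60 and -0.22 over the members, -1.36, -1.88 and -1.20 over the immunoproteasome, and -0.02, 0.01 and -0.03 over all features. The pan-leukocyte medians of the same pools were -1.51, -2.05 and -1.26, so pool 3 was the least shifted in both sets. Across the 38 genes, Pearson's r between pools 2 and 3 was 0.94 and Spearman's rho 0.86, against 0.85 and 0.74 over all features. Genes are not independent replicates, and both pools share a slide.

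Genes that build or regulate the proteasome were mixed. Of 13 tested of 19 listed, 5 fell and 1 rose, with a median log2 ratio of -0.25, against 24.5% lower and 3.74% higher over all features. Pomp, the chaperone that matures the core and is itself used up by it, had log2 ratios of -1.78, -1.90 and -1.22 in pools 1, 2 and 3 (mean -1.56 ± 0.48, SD, n = 2; adjusted p = 4.22e-23). Sem1, a small lid subunit outside the Psm naming, had a mean of -1.31 ± 0.41 (adjusted p = 1.27e-17). The other genes that fell were Txnl1, a thioredoxin bound to the lid (-0.99), Nfe2l2, a transcription factor of the oxidative stress response (-0.70), and Uchl5, a deubiquitinase that binds the regulatory particle (-0.40). Txnl1, Nfe2l2 and Uchl5 were kept through the control channel alone, with FR above background on 2, 3 and 2 of 4 arrays. Pomp and Sem1 were above background in both diets. Psmf1, coding for the inhibitor PI31, had 0.78, 0.64 and 1.02 in the 3 pools (mean 0.83 ± 0.27, SD, n = 2; adjusted p = 1.45e-07). It was higher under all 16 alternatives run. Usp14, another such deubiquitinase, had 0.05 and was not called. Psmg1, Psmg3 and Akirin2 were too dim.

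The list of ubiquitin supply and delivery genes is reported in part, so no count or median is given for it. Rps27a, which codes for ubiquitin fused to a ribosomal protein, had log2 ratios of -1.35, -1.46 and -0.96 in pools 1, 2 and 3 and fell (mean -1.21 ± 0.35, SD, n = 2; adjusted p = 9.17e-15). The polyubiquitin gene Ubb also fell, by less (-0.65 ± 0.05, adjusted p = 0.0188).

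The interferon and antigen processing list is likewise reported in part, with no count or median. B2m, the light chain of MHC class I, fell, with -2.34, -2.30 and -2.37 in pools 1, 2 and 3 (mean -2.33 ± 0.05, SD, n = 2; adjusted p = 1.02e-45). The transcription factor genes Irf8 (-2.01 ± 0.38) and Irf1 (-1.66 ± 0.63) fell, as did Tapbp (-0.94), which codes for the loading factor tapasin. Irf8 and Irf1 were kept through the control channel alone, with FR above background on 2 and 3 of 4 arrays. Tap1 (0.12 ± 0.10, adjusted p = 0.603) and Tap2 (0.01 ± 0.03, adjusted p = 0.962), which code for the peptide transporter, did not pass. Both were dim, with mean log2 signals of 6.89 and 6.61 and FR above background on 3 and 2 of 4 arrays. A ratio near 0 at such signals does not show that Tap1 and Tap2 were unchanged. Tap1 and Tap2 are the chromosome 17 neighbours of Psmb8 and Psmb9, in the order Psmb9, Tap1, Psmb8, Tap2, and Psmb8 and Psmb9 both fell. Erap1 was too dim.

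**Figure D4:**
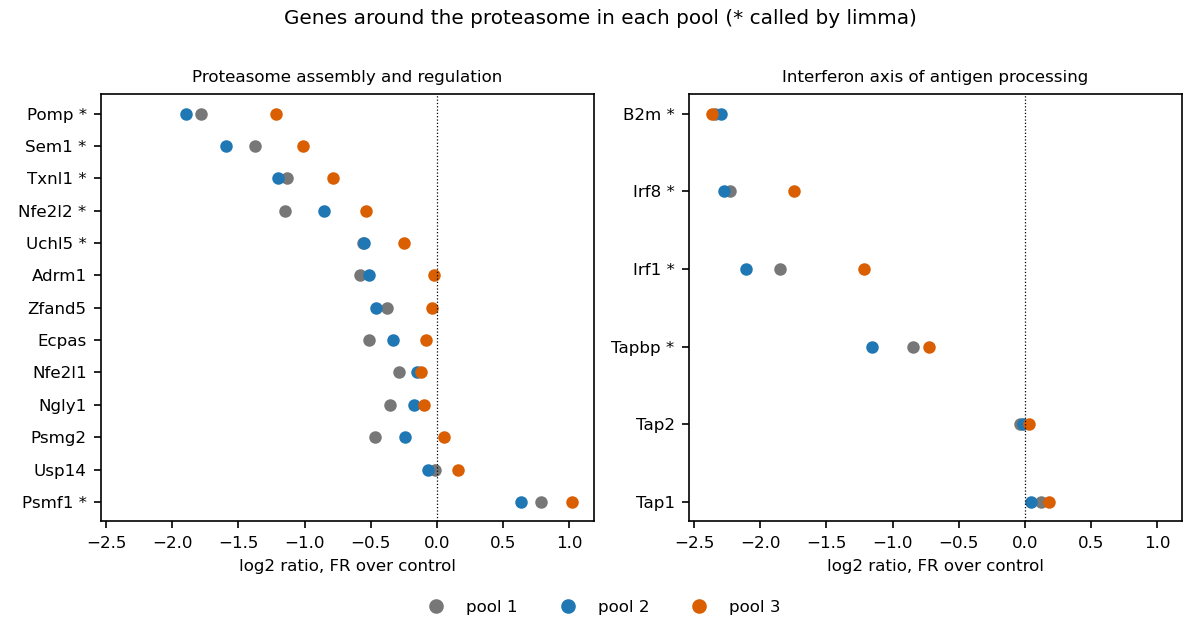
Log2 ratio of FR over control in each pool (colour) for the tested genes of proteasome assembly and regulation and for the reported genes of the interferon and antigen processing list, 1 row per gene, with called genes marked by an asterisk. Pomp, Sem1, B2m, Irf8 and Irf1 lie left of 0 in all pools, Psmf1 lies right of it, and Tap1 and Tap2 lie near 0.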

How the data were processed

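Per the submitters' processing notes, the 6 arrays were read with Agilent Feature Extraction 11.0.1.1. The deposited files give, for every spot, linear intensity (median and background median) in red (Cy5) and green (Cy3). The deposited series table holds log10 ratios of red over green processed signal. Here background was corrected by normexp (offset 50) and ratios were normalized by loess within arrays, with control spots at weight 0 and outlier spots left out. Signs were turned to FR over control from the labelled dyes, and both arrays of a pool were averaged. Loess puts the median of all features at 0.01; with median centring it was -0.18, and changes are relative to it. Control was above background in 37.2% to 62.1% of probes and FR in 20.4% to 55.6%, and the number of arrays limits the precision.

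Of 41174 probes, 23374 were named through RefSeq accessions (GRCm38.p6). The brightest kept probe stood for a gene. limma 3.58.1 in R 4.3.3 tested the log2 ratios of pools 2 and 3 against 0 (trend, two-sided). Its prior degrees of freedom were infinite, so genes of like signal share 1 spread, and small p-values overstate certainty. The pool number pairs FR and control by the shared array, not by shared animals. Named genes are the catalytic and activator genes, the 3 lowest and 3 highest of each role, and the 2 lowest and 2 highest of each pathway list, with further members for completeness. Some listed genes are not reported here. Members and lists were chosen with earlier results of these data known. The alternatives changed background, scaling, filter, replicates, slide, pairing, prior, dye and probe.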

Additional observations from a re-analysis of the deposited data

How the results depend on the processing

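Of the 22 members called lower, 9 kept that call in all alternatives that tested them: Psme2, Psmb10, Psmb8, Psma2, Psmb4, Psma1, Psmb9, Psma7 and Psmd11. The count of members called lower, with the share of all features called lower, was 13 of 26 with both diets above background (18.6%), 9 with no replicate block (8.56%; FR pools against control pools, unpaired), 13 with 5.41 prior degrees of freedom, the value from 3 pools (15.5%), and 14 on arrays with FR in Cy3 alone (18.4%). It ran from 14 without pool 2 (20.8%) to 31 without pool 3 (36.2%). In these fits pool 1, with the same animals, took the place of the pool left out. The count called lower was 30 with median centring (35.6%) and 31 with slide as a random block (38.7%). The count called higher was 0 with median centring, with no replicate block, with the prior of 3 pools and with FR in Cy5 alone, 4 with slide as a random block (30.8% of all features), and 1 to 2 without pool 2 (4.13%) or pool 3 (15%). With the processed signals, and with the series table, which gave the same values, the median was -1.33 in the core and -2.09 in the immunoproteasome. The core median was -0.83 with both diets above background, and the regulatory particle median -0.42 with median centring. With the processed signals or the series table, the paired differences were -1.49 (Psmb8 and Psmb5), -0.75 (Psmb9 and Psmb6) and -2.38 (Psmb10 and Psmb7). Leaving out pool 2 or 3, Psmb8 and Psmb5 differed by -0.84 to -1.01, Psmb9 and Psmb6 by -0.28 to -0.31. The latter was -0.33 over 3 pools, -0.27 with FR in Cy5 alone and -0.54 with FR in Cy3 alone.

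Signs turned only in members not called. With median centring Psmd8 was -0.18, Psmd10 -0.10, Psmd7 -0.11, Psmd9 -0.021 and Psmd2 -0.054. Without pool 2 or pool 3, Psme3 ran from -0.21 to 0.096, Psmd10 from -0.019 to 0.13 and Psmd8 from -0.078 to 0.11. With FR in Cy3 alone Psme3 was 3e-04 and Psmd10 -0.034, and with the mean over probes Psmd7 was -0.16. The causes were not tested. The limits are 2 pools of 4 animals on 1 slide, dim FR signals near background and a probe, not a transcript, behind each value.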
